A study of Mus musculus with 8 samples.

Results

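The NR4A orphan nuclear receptors were measured by 3 probes, 1 each for Nr4a1 (also called Nur77), Nr4a2 (Nurr1) and Nr4a3 (NOR-1), of 41174 probes for 28786 gene names on the array. Members were taken by the gene name in the array files, and no further probe reached one of these genes through its RefSeq accession. All 3 probes were well above background on 8 of 8 arrays. The samples were primary smooth muscle cells cultured from aortas of C57BL/6 mice, in 2 groups of 4 cultures that the labels call independent. Angiotensin II at 1 µM, a hormone that raises blood pressure, was given to the AngII cultures. The AngII+CsA cultures had that dose plus 200 ng/ml of cyclosporin A, an immunosuppressant that inhibits the calcium-dependent phosphatase calcineurin through cyclophilin. Both groups grew in DMEM with serum and both carried angiotensin, and no group without it was analysed here. The duration of treatment and the age and sex of the mice are not given in the sources used here.

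NR4A proteins are transcription factors without a known endogenous ligand whose activity follows mostly from how much of them is made. Their genes are immediate early genes, transcribed within minutes of calcium, cAMP or growth factor signals, largely through CREB bound to cAMP response elements (CREs) close to the start site. In T cells, calcineurin also acts on Nr4a1 through the MEF2 factors. The receptors bind the NBRE element as monomers, and Nr4a1 and Nr4a2, but not Nr4a3, also pair with retinoid X receptors. In the vessel wall, Nr4a1 is known to restrain smooth muscle growth and Nr4a3 to favour it.

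Each probe is 60 bases long, and its first 30 bases are shown in lower case to identify what each value measures.

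Nr4a1: ctcttccgctctccttccatgtgtacataa

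Nr4a2: aaagaccatgtgactttcaataatgggggt

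Nr4a3: agaatcagcctttttggagctgtttgttct

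By the array files, which use build mm7, the Nr4a1 probe lies at chr15:101260484-101260543 on the plus strand and the Nr4a2 probe at chr2:57108976-57109035 on the minus strand. The Nr4a3 probe is placed at chr4:48081632-48084818 on the plus strand, a span of 3187 bases that is longer than the probe. Exon and UTR boundaries in mm7 were not used here, so it is not stated which part of each transcript a probe reads. The longest run of bases that any of the 3 probes shared with another, on either strand, was 7.

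The promoters are shown because CREs near the start site are the elements these genes are known for. RefSeq windows of assembly GRCm38.p6 matched 3 of 3 members, and the 250 bases before each start are printed 5′ to 3′ along the gene's strand. Capitals mark the CRE core TGACG on either strand, which reads CGTCA where it lies on the opposite strand. The first stretch is chr15:101266596-101266845 (plus strand), the second chr2:57124004-57124253 (minus strand) and the third chr4:48045055-48045304 (plus strand).

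Nr4a1: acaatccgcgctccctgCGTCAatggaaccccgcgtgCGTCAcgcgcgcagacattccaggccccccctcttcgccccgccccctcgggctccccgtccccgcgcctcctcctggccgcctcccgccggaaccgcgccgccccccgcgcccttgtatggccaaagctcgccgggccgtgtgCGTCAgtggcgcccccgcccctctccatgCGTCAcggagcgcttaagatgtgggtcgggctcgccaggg

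Nr4a2: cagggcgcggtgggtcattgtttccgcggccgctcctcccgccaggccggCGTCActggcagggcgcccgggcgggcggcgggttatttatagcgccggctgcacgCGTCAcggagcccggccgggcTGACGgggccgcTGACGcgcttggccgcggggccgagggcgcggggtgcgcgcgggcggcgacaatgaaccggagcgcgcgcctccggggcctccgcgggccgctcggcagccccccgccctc

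Nr4a3: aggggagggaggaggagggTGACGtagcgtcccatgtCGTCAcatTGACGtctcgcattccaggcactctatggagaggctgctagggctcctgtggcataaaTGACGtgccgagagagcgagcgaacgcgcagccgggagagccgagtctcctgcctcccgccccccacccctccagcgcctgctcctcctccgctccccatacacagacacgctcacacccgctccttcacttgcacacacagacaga

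Each of the 3 windows held 4 CRE core sites, counted over 300 bases that include 50 after the start. Over all 32851 RefSeq windows of this length, 20.8% held at least 1 core and 0.231% held 4 or more. The core sites began at -233, -213, -69 and -40 in Nr4a1, at -200, -144, -123 and -111 in Nr4a2, and at -231, -213, -205 and -147 in Nr4a3, relative to the start. None of the 3 windows held the full palindrome TGACGTCA, which contains the core on both strands and occurred in 1.79% of windows. The NFAT core GGAAA was found once in Nr4a2, in no other member, and in 61.3% of all windows. The MEF2 letters TATTTNTA were also found once in Nr4a2 and in 5.99% of windows, and the NBRE AAAGGTCA in none of the members and 1.51% of windows. Bases G and C made up 72.3% of the Nr4a1 window, 81.7% of that of Nr4a2 and 64.7% of that of Nr4a3. These are matches of letters and not measured binding.

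**Figure D1:**
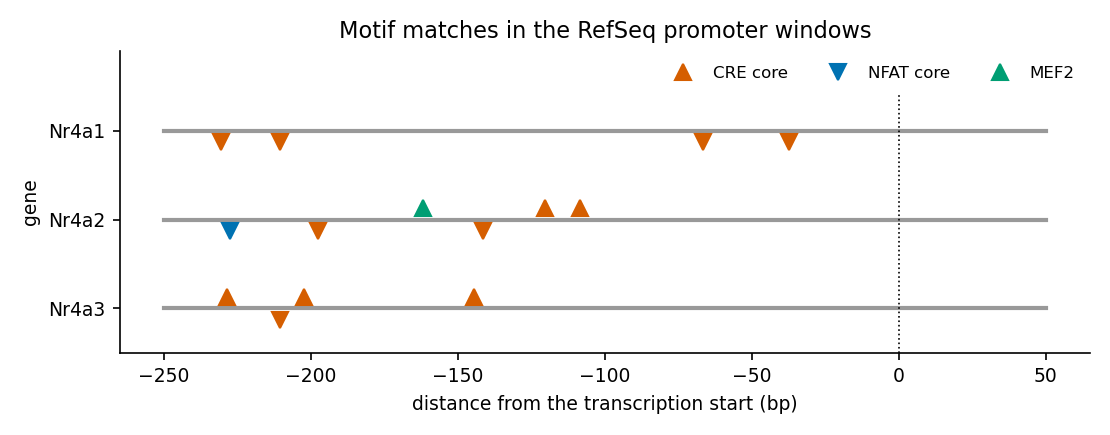
Matches in the 300-base promoter windows of Nr4a1, Nr4a2 and Nr4a3, by distance from the transcription start in base pairs (dotted line). Triangles pointing up are matches on the gene's strand and those pointing down on the opposite strand; each gene has 4 CRE core sites (orange), and Nr4a2 also has 1 NFAT core (blue) and 1 MEF2 match (green).

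All values below are log2 processed signals relative to the 75th percentile of their own array, so 1 unit is a doubling, and levels of different probes are not set against each other. Between 42.8% and 51.7% of the spots on an array were well above background. Each replicate number from 1 to 4 stands for 1 slide, which held 1 array of either group. The fit on the groups alone is given with a fit that holds the replicate number as a block. The calcineurin feedback regulator Rcan1, the gene with the largest cyclosporin difference among those called, serves as reference: it went from 5.01 ± 0.61 to 2.75 ± 0.69 (SD, n = 4 each) and fell by 2.26 with the block (limma, adjusted p = 0.0215). Those values are of 1 probe, and a second Rcan1 probe differed by -1.50 and did not pass (limma with the block, adjusted p = 0.25). Smooth muscle markers were above background on 8 of 8 arrays for 8 of 10 genes, Acta2, Myh11 and Tagln among them.

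Nr4a1 gave strong signals in every culture. Its log2 signal with AngII was 8.46, 8.62, 8.41 and 7.71 in replicates 1 to 4, and with AngII+CsA it was 8.58, 8.06, 7.64 and 7.22. The cyclosporin array was lower in replicates 2, 3 and 4 and slightly higher in replicate 1, and the groups overlapped. Mean and SD over 4 cultures were 8.30 ± 0.41 for AngII and 7.87 ± 0.58 for AngII+CsA. Spots read 365 to 987 times their local background, and 0 non-control spots were saturated.

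The difference in Nr4a1 was -0.43, a 1.34-fold lower level with cyclosporin, with pair differences of 0.12, -0.57, -0.78 and -0.49 in replicates 1 to 4. Its 95% interval was -1.18 to 0.32 on the groups alone and -0.82 to -0.03 with the replicate block. The block interval reached above 0 with median scaling (-0.76 to 0.11), quantile normalization (-0.86 to 0.11), the authors' table (-0.84 to 0.11) and normexp (-0.63 to 0.04), with no filter on dim probes, and without replicate 2, 3 or 4. It did not pass limma with Benjamini-Hochberg adjustment over all probes in either fit (adjusted p = 0.9999 without the block and 0.933 with it). The exact two-sided permutation p over the 8 arrays was 0.286. By sign flips over the 4 pairs the exact two-sided p was 0.25, where 0.125 is the smallest that 4 pairs can give.

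Nr4a2 was the only member whose cyclosporin array was lower in 4 of 4 pairs, although the replicate 1 pair differed by little and turned to 0.04 with median scaling. Its log2 signal with AngII was 3.62, 2.85, 2.36 and 1.64 in replicates 1 to 4. With AngII+CsA it was 3.49, 1.47, 1.89 and 1.04. Replicate 1 was high and replicate 4 low in both groups, so the groups overlapped although the pairs leaned one way. Mean and SD over 4 cultures were 2.62 ± 0.83 for AngII and 1.97 ± 1.07 for AngII+CsA.

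The difference in Nr4a2 was -0.65, a 1.56-fold lower level, with pair differences of -0.13, -1.38, -0.48 and -0.60. The 95% interval was -1.88 to 0.58 on the groups alone and -1.14 to -0.15 with the block. It did not pass either fit (limma, adjusted p = 0.9999 and 0.933). The exact two-sided p was 0.371 by permutation over the 8 arrays and 0.125 by sign flips, the smallest that 4 pairs can give. Without replicate 2, the pair with the widest gap, the block fit gave -0.40.

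Nr4a3 gave weak signals, with spots at 1.25 to 2.84 times their local background. Its log2 signal with AngII was -3.03, -0.88, -0.60 and -0.35 in replicates 1 to 4, and with AngII+CsA it was -2.16, -1.31, -1.39 and -1.56. In replicates 2, 3 and 4 every AngII array lay above every AngII+CsA array, while replicate 1 was the lowest of each group and ran the other way. Mean and SD over 4 cultures were -1.21 ± 1.23 for AngII and -1.60 ± 0.38 for AngII+CsA.

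The difference in Nr4a3 was -0.39, a 1.31-fold lower level, with pair differences of 0.87, -0.44, -0.79 and -1.20. The 95% interval was -1.57 to 0.79 on the groups alone and -1.17 to 0.39 with the block, and neither fit passed (limma, adjusted p = 0.9999 and 0.934). The exact two-sided p was 0.571 by permutation and 0.5 by sign flips. The AngII array of replicate 1 was the dimmest of the 8, at 1.25 times its local background. With normexp background correction all 4 pair differences were smaller in size, at 0.21, -0.34, -0.31 and -0.61 in replicates 1 to 4.

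**Figure D2:**
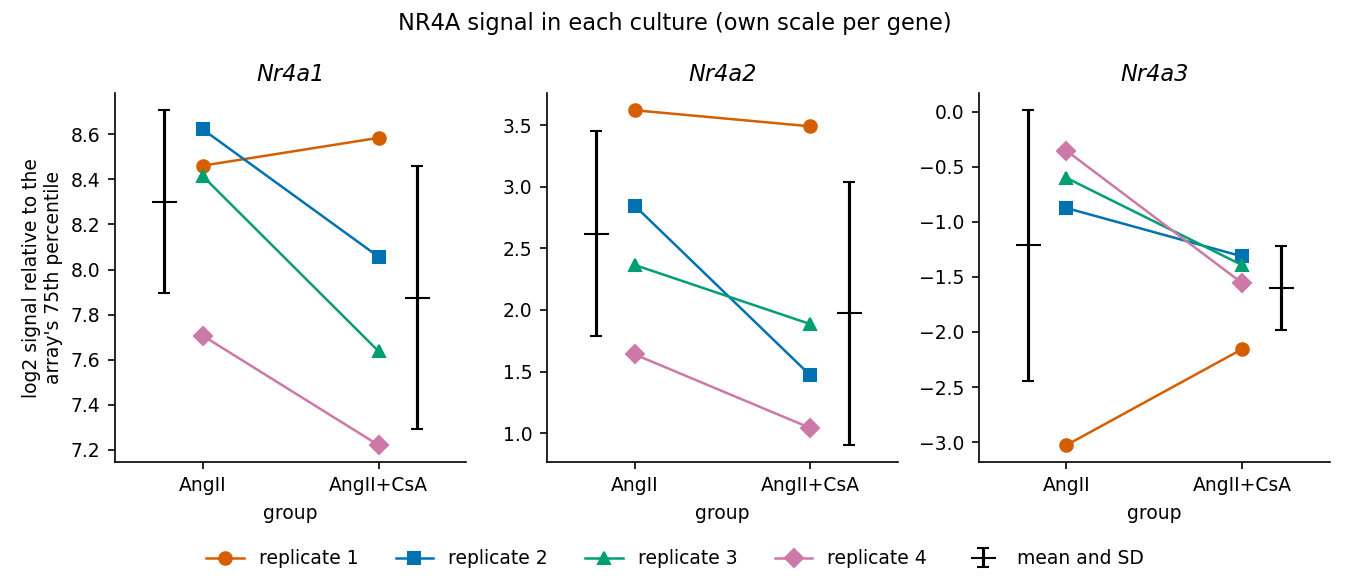
Log2 signal, scaled to each array's 75th percentile, for Nr4a1, Nr4a2 and Nr4a3 in AngII and AngII+CsA cultures, with a line joining the arrays of each replicate number and black bars for mean and SD (n = 4 per group). Each panel has its own scale; lines of replicates 2 to 4 slope down for all 3 genes, and that of replicate 1 rises for Nr4a1 (8.46 to 8.58) and Nr4a3 (-3.03 to -2.16).

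The 3 members shared 1 pattern across the replicate numbers. Each was lower with cyclosporin in replicates 2, 3 and 4 under 75th percentile, median and quantile scaling, with normexp and in the authors' table. Averaged over those 3 replicates the differences were -0.61 for Nr4a1, -0.82 for Nr4a2 and -0.81 for Nr4a3, or 1.53-, 1.76- and 1.75-fold lower. This average was taken after the values were seen, and with the block and without replicate 1 none passed (limma, adjusted p = 0.87 for each). Leaving out replicate 1 moved the Nr4a3 difference the most, from -0.39 to -0.81. Of all probes, 14.8% were lower in replicates 2, 3 and 4, 5.67% were higher in replicate 1 and lower in the others as Nr4a1 and Nr4a3 were, 9.09% were lower in 4 of 4 pairs as Nr4a2 was, and 34.9% were lower in at least 3 of 4 pairs as all 3 members were. In replicate 1, Rcan1 was as low with cyclosporin as in the other replicates (-2.39). Over all probes the median difference was -0.08 in replicate 1 and between -0.02 and 0.01 in the others.

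No member was called. Among all probes, limma called 0.0% at the threshold of 0.05 after adjustment without the block (58 had an unadjusted p below it) and 0.0102% with it, which is 2 of 19530, Rcan1 and Serpinb1c. Groups that did not overlap, with AngII+CsA lower, were found in 0.308% of probes and in none of the members. At an unadjusted p under 0.05 the block fit held Nr4a1 (0.0391) and Nr4a2 (0.0181) by limma, where 3.42% of all probes were lower at that level. Nr4a1 did not keep this with the block under median scaling (limma, unadjusted p = 0.117), quantile normalization (0.109) or the authors' table (0.109). Nor did it with normexp (0.0747) or no filter on dim probes (0.0603), while Nr4a2 ran from 0.0265 to 0.0404 in these settings. The number of all probes lower at that level varied between them. With normexp, where Nr4a2 had 0.0354, it was 3423 of 19530, so such a p was common there. It was 1711 of 41173 with no filter, 424 with quantile normalization and 416 with the authors' values. On the groups alone none of the members was lower at that level, and 0.251% of probes were. A difference at least as low as that of Nr4a2 was found in 0.804% of probes, as that of Nr4a1 in 2.95% and as that of Nr4a3 in 3.72%. With median scaling the median over all probes moved from -0.01 to 0.09 and the member differences were -0.32 for Nr4a1, -0.54 for Nr4a2 and -0.29 for Nr4a3. In that scaling with the block, 265 probes were lower and 1000 higher at an unadjusted p under 0.05, against 668 and 307 with 75th percentile scaling.

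No difference between members was larger than the spread between pairs. The Nr4a1 difference minus that of Nr4a2 was 0.22 ± 0.46 (SD, n = 4 pairs; exact two-sided sign-flip p = 0.5). For Nr4a1 minus Nr4a3 it was -0.04 ± 0.60 (SD, n = 4 pairs; exact p = 0.75), and for Nr4a2 minus Nr4a3 it was -0.26 ± 0.83 (SD, n = 4 pairs; exact p = 0.5). Adjusted over the 3 comparisons, each p was 0.75, and the smallest unadjusted p that 4 pairs allow is 0.125. The values of the 4 pairs ran from -0.30 to 0.81 for the first, from -0.75 to 0.72 for the second and from -1.001 to 0.60 for the third.

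**Figure D3:**
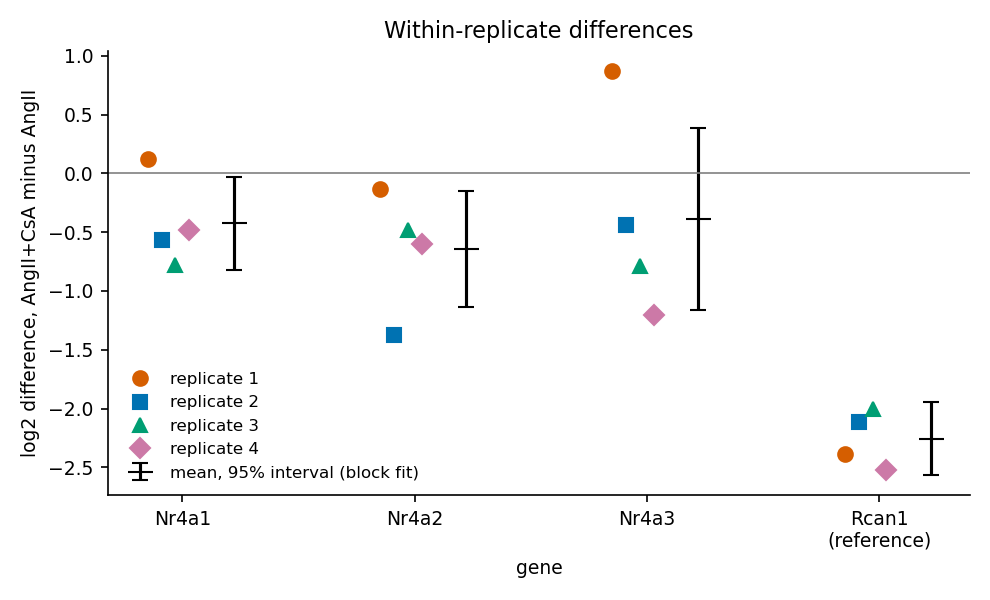
Log2 difference of AngII+CsA minus AngII in each replicate number for Nr4a1, Nr4a2, Nr4a3 and the reference gene Rcan1, with the mean and 95% interval of the block fit in black. Replicate 1 lies highest for each NR4A gene (0.12, -0.13 and 0.87), while the 4 values of the called Rcan1 probe lie close around their mean of -2.26.

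The replicate numbers differed in NR4A signal, and not in the same order for each gene. Averaged over both arrays of a replicate number, Nr4a1 was 8.52, 8.34, 8.03 and 7.46 in replicates 1 to 4, a range of 1.06. Nr4a2 was 3.55, 2.16, 2.13 and 1.34, a range of 2.21. Nr4a3 was -2.59, -1.09, -0.997 and -0.955, a range of 1.64. Replicate 1 was thus the highest for Nr4a1 and Nr4a2 and the lowest for Nr4a3. For each member the range over replicate numbers exceeded its mean difference between AngII and AngII+CsA. The replicate term, added after the values were seen, passed for all 3 (limma F-test with the block, adjusted p = 0.0269 for Nr4a1, 0.00632 for Nr4a2 and 0.0428 for Nr4a3), as it did for 66.9% of all probes. Slide and any origin shared by same-numbered cultures cannot be told apart as its source. In bulk RNA fewer cells of a type and less RNA per cell cannot be told apart either.

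Genes whose signal followed a member most closely were found by Pearson r over the 8 arrays among 11567 other genes with a current symbol. All genes share the same 8 arrays on 4 slides, so r is given as a description. For Nr4a1 the closest were Tle6 (r = 0.96), Nfxl1 (0.94), Sgip1 (0.93), Atp13a3 (0.92) and Lrg1 (0.92). For Nr4a2 the closest included the monocyte chemokine Ccl7 (0.96), the growth factor Bmp2 (0.96), Sgip1 (0.96) and Pitpnc1 (0.95). For Nr4a3 they were Cemip, a hyaluronan-degrading protein (0.96), Slc41a1 (0.96), Mypn (0.95), Zmynd12 (0.95) and Fnbp1 (0.94). Of those named, Lrg1 and Ccl7 were lower with cyclosporin in 4 of 4 pairs, by differences of -0.59 and -0.60, and neither passed the block fit (limma, adjusted p = 0.894 each).

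The wider nuclear receptor superfamily gives the members their setting. Of 49 genes on the array, 28 were above background on 8 of 8 arrays, 4 on only 1 to 3 arrays and 13 on none, and 32 were tested with 1 probe per gene. Among the 29 tested receptors other than NR4A, 13 differences of group means were positive and 16 negative (Esrrg among the negative, at -0.16, although it is 0.12 with the block), with a median of -0.02, the same as over all 14883 genes tested (-0.02). Of the 32, Nr4a2, Rxrg, Nr4a1 and Nr4a3 had the lowest differences in that order. Rxrg, a retinoid X receptor, differed by -0.59, with 4 of its 4 AngII spots but 2 of its 4 AngII+CsA spots above background. Its pairs differed by -0.14, -0.21, -1.79 and -0.21, and without replicate 3 their mean was -0.18. Nr3c1, the glucocorticoid receptor, was higher in 4 of 4 pairs with a difference of 0.34. Of the 29 receptors other than NR4A, 7 were lower in 4 of 4 pairs, Rxrg among them, and 1 was higher. Over all genes these shares were 9.74% and 4.99%. Among the 32, 0 passed on the groups alone or with the block (limma, adjusted p = 0.894 for Rxrg and Nr3c1), where 0.0% and 0.0269% of all genes did, and at an unadjusted p under 0.05 the block fit held 2 lower (Nr4a1 and Nr4a2, where 3.74% of genes were lower) and 1 higher (Nr3c1, where 1.53% were higher).

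**Figure D4:**
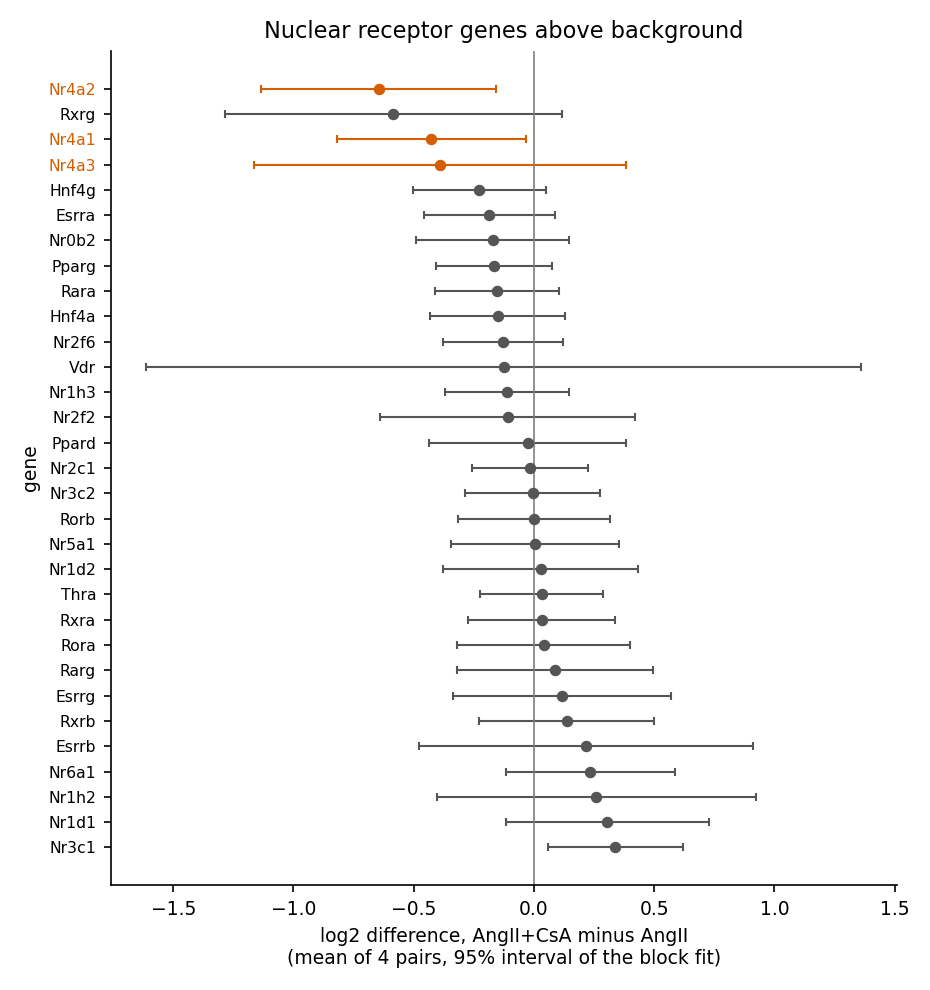
Log2 difference of AngII+CsA minus AngII for the nuclear receptor genes tested, 1 of which is not shown, with the mean and 95% interval of the block fit, NR4A genes in orange. Nr4a2 (-0.65), Nr4a1 (-0.43) and Nr4a3 (-0.39) lie among the 4 lowest with Rxrg (-0.59); the Esrrg value (0.12) rests on 7 arrays, since an outlier spot was left out, and its difference of group means was -0.16.

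Factors that act on NR4A transcription were spread around 0. Of 42 listed genes for CREB, MEF2, SRF, NFAT, class II histone deacetylases and calcium-dependent kinases, 37 were tested, with 19 positive and 18 negative differences, a median of 0.02 and 0 passing either fit. Hdac4, a deacetylase that represses MEF2, was higher in 4 of 4 pairs, from 1.82 ± 0.15 to 2.21 ± 0.13 with cyclosporin (SD, n = 4 each). It did not pass (limma with the block, adjusted p = 0.894), and its highest AngII array (2.03) nearly met its lowest AngII+CsA array (2.04). A higher value in 4 of 4 pairs was found in 4.99% of genes. Its relative Hdac9 differed by -0.47 and Mrtfb, a coactivator of SRF, by -0.44, each lower in 4 of 4 pairs, where 9.74% of genes were. Mrtfb was above background on only 2 of 4 arrays in each group.

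Partners and cofactors of NR4A proteins gave 10 positive and 9 negative differences among 19 tested of 20 listed, with a median of 0.00 and 0 passing. After Rxrg the smallest p belonged to Ncoa3, a nuclear receptor coactivator (-0.16), and Fhl2, a LIM protein that binds these receptors (-0.31, but -0.06 without replicate 1). Each was lower in 4 of 4 pairs and neither passed (limma with the block, adjusted p = 0.9 and 0.901).

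Genes reported as NR4A targets gave 10 positive and 14 negative differences among 24 tested of 31 listed, with a median of -0.05 and 0 passing either fit. Vcam1, the leukocyte adhesion molecule, was lower in 4 of 4 pairs, by pair differences of -1.10, -0.55, -0.42 and -0.61. Its pair difference was thus lowest in replicate 1, where no NR4A gene differed by more than 0.13 downward. That contrast rests on 1 pair and was not tested. Its mean went from 10.06 ± 0.57 to 9.39 ± 0.83 (SD, n = 4 each; limma with the block, adjusted p = 0.894). The steroid enzyme gene Cyp11b2 differed by -0.44, with 4 AngII and 3 AngII+CsA spots above background, and Nox1, an NADPH oxidase of smooth muscle, by 0.31. Neither passed.

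The list of other immediate early genes was mixed in direction. Of 39 listed, 35 were tested, with 21 positive and 14 negative differences, a median of 0.05 and 0 passing either fit. In 4 of 4 pairs 7 were higher and 4 lower, where 4.99% and 9.74% of all genes were. At an unadjusted p under 0.05 by limma with the block 5 were higher and 4 lower, where 1.53% and 3.74% of all genes were. The 3 with the smallest p were all lower in 4 of 4 pairs: the phosphatase gene Dusp2 (-0.83), the small GTPase gene Gem (-0.93) and the antiproliferative Btg2 (-0.55), with adjusted p of 0.692, 0.894 and 0.894 by limma with the block. For Gem, 3 of 4 AngII spots and 1 of 4 AngII+CsA spots were above background. Whether the NR4A genes differ from the other immediate early genes was not tested.

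Markers of other vessel wall and blood cells were measured on the same arrays, with a list's summed signal given as a multiple of the array's 75th percentile. Of 8 fibroblast markers, Clec3b, Dcn, Lum, Pdgfra and Pi16 were above background on 8 of 8 arrays. Their list summed to 302.4 to 1196 with AngII and 344.5 to 1150.0 with AngII+CsA, and 4 of 5 tested differences were negative (median -0.14). The smooth muscle list summed to 317.3 to 1451 and 249.4 to 1282, and 6 of its 9 tested differences were positive (median 0.11). Of 11 endothelial markers, Pecam1, Cdh5 and Tie1 were above background on no array and Cldn5 and Tek on all. The 6 tested all had negative differences (median -0.22), and the list summed to 1.18 to 1.53 with AngII and 1.03 to 1.21 with AngII+CsA. Of 7 macrophage markers, Cd14, Cd68 and Csf1r were above background on all arrays and Adgre1 and Itgam on none. That list summed to 7.38 to 11.95 and 6.70 to 10.9, with 2 of 3 tested differences negative. Of 7 T cell markers, Cd2, Cd3e and Cd4 were above background on all arrays and Cd8a on none, with sums of 1.35 to 2.65 and 1.26 to 1.88 and 3 of 4 tested differences negative. The part of these cells in the NR4A values was not tested.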

How the data were processed

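RNA was labelled with Cy3 on 1-colour Agilent arrays of design 014868 and quantified with Agilent Feature Extraction 9.5.3.1, per the file headers. The deposited files give each spot's intensity on a linear scale (processed signal, mean signal and local background) with detection flags. A deposited table of the authors' log2 values, whose method and scale constant are unknown, served as an alternative, and its columns each have a median of 3.01. Log2 processed signal was taken relative to the 75th percentile of each array. Control and outlier spots were left out and spots of a probe averaged. The 19531 probes above background on at least 4 of 8 arrays were tested (limma 3.58.1, R 4.3.3, two-sided, Benjamini-Hochberg, threshold 0.05), 1 probe per gene, that with the highest mean, for gene lists. Of 41174 probes, 22951 were named by accession in RefSeq, 6659 carried a current symbol and 11564 kept the files' name.

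Same-numbered arrays deviated together from their group means (r = 0.70 to 0.86 over probes). The labels' replicate numbers, each on 1 slide, were therefore treated as pairs. Arrays of different numbers in the 2 groups gave r of -0.76 to 0.25. That contrast is partly built in, since deviations from a group mean offset each other. Both fits were tested on simulated data. Members, lists and tests were chosen with earlier results of these data known. The text names the 3 members, Rcan1, up to 3 list members with the smallest p with the block where none passed, and the 5 genes most like each member, except that some genes these rules pick are not reported here. Marker genes, Serpinb1c and the transcripts in the closing observations were named after their values were seen. Coordinates of probes are those of mm7 and of promoters those of GRCm38.p6. The number of arrays limits the precision.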

Additional observations from a re-analysis of the deposited data

Results flagged for a closer look

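The arrays of each group were examined for 37 probes, those of the members, Rcan1, Serpinb1c, the list members named by the rule, the genes most like each member and the neighbours of the members, but not the cell type markers. Of these 74 groups of 4 arrays, 4 held an array far from the other 3, where chance gives about 1 in 20, and no group of an NR4A probe was among them. Each time it was the lowest array and that of replicate 1. Dusp2 read -3.22 with AngII+CsA, against -0.92 to -0.76 in the others. Mypn read -2.28 with AngII, against -1.52 to -1.48. Fnbp1 read -0.12 with AngII, against 1.59 to 1.89, and 0.32 with AngII+CsA, against 1.35 to 1.55. Mypn and Fnbp1 were picked for following Nr4a3, which is also lowest in replicate 1. With AngII the Nr4a3 probe read -3.03 in replicate 1, against -0.88 to -0.35 in the others, which was not flagged.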

How the results depend on the processing

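The differences of Nr4a1, Nr4a2 and Nr4a3 were negative in each of the 32 alternatives run per gene, and none passed the threshold, with adjusted p of at least 0.223, 0.174 and 0.24 by limma. Many of the 32 could not change a difference, since they alter only the variance or the probes tested. Adding the block to all 8 arrays also leaves it unchanged. The average over replicates 2 to 4 equals the block fit without replicate 1. The 32 are thus not separate support for the sign. With 1 array left out of the fit on the groups alone, the difference ran from -0.66 to -0.21 for Nr4a1, from -1.15 to -0.31 for Nr4a2 and from -0.99 to -0.10 for Nr4a3. With the replicate block and 1 replicate number left out it ran from -0.61 to -0.31, from -0.82 to -0.40 and from -0.81 to -0.12. In the other alternatives, the average over replicates 2 to 4 included, it ran from -0.61 to -0.29, from -0.82 to -0.46 and from -0.81 to -0.26, the upper ends with normexp background correction.

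The count of probes called was 0 on the groups alone (58 at an unadjusted p under 0.05). With the replicate block it was 2, also with quantile normalization, the authors' table or median scaling, the last added after seeing the data. It was 3 with normexp and the block, 4 with the block and either the stricter filter or 1 probe per gene, 6 with a trended robust variance and the block, and 8 with the replicate as a random block. It was 0 on the groups alone without any 1 array, and 0 with the block without any 1 replicate number. With no filter on dim probes and the block it was also 0. The cause of these differences was not tested. List medians moved by less than their spread between pairs under normexp. Nr4a3 is limited by its low signal over background.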

Other observations

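Transcripts beside the members or named after them by the array annotation were looked at after the main values were seen. Of the probes within 20 kb of a member's probe in mm7, the unclassified cDNA 2210008N01Rik, at chr2:57124042-57124101 on the same minus strand as Nr4a2 and 15007 bases upstream of its probe, read 3.11, 2.26, 1.44 and 1.39 with AngII and 1.85, 1.30, 1.34 and 0.76 with AngII+CsA in replicates 1 to 4. It was lower in 4 of 4 pairs with a mean difference of -0.74, and did not pass (limma with the block, adjusted p = 0.933). Unlike Nr4a2, whose replicate 1 pair differed by -0.13, it was lowest relative to AngII in replicate 1 (-1.25), a contrast that was not tested. The other cDNA near Nr4a2, D030020J04Rik, was above background on 0 arrays. Atg101, an autophagy gene 16018 bases from the Nr4a1 probe, differed by -0.02.

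The array annotation names a pair of genes as downstream of Nur77. Chchd10, a mitochondrial protein gene listed there as Ndg2, differed by 0.05 (limma with the block, adjusted p = 0.973). Khdc1a, listed as Ndg1, was above background on 0 arrays by 1 probe and on 1 array by the other.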
